A study of Mus musculus with 4 samples.

Results

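The genes described here are the histone genes of the deposited mouse stomach table that still carry a symbol of the Hist1h to Hist4h type. They were chosen by symbol alone, with no use of their values, and 9 of the 51098 genes in the table met that rule. Hist1h2al, Hist1h2an, Hist1h2ao and Hist1h2ap are named for histone H2A, Hist1h2bp, Hist1h2bq and Hist1h2br for H2B, and Hist1h4m and Hist1h4n for H4. No gene of H1 or H3, and none of the Hist2, Hist3 or Hist4 clusters, met the rule. A further 61 genes that GENCODE M21, the annotation used for coordinates, names in the same way are listed in the table under newer symbols such as H2ac19 or H4c9. Those 61 genes served for comparison only, and with the 9 members they make a family of 70.

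RNA was taken from stomachs of embryos at E15.5 (embryonic day), rid of ribosomal RNA and sequenced as paired reads. The Fgf9_null group is Fgf9LacZ/LacZ, homozygous for a LacZ allele of the fibroblast growth factor gene Fgf9, and the Fgf9_het group is Fgf9LacZ/+, with 1 such allele beside a normal one. The sample titles and the column names call the Fgf9_het samples WT, which goes against their genotype label, and the genotype label was followed. By that label both groups carry the LacZ allele. Each group has samples numbered 2 and 3, and the labels leave unstated how many embryos went into each.

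Histones H2A, H2B, H3 and H4 form the protein core around which DNA is wound, and H1 binds the linker between cores. Replication-dependent histone genes are transcribed mainly while DNA is copied in S phase. Their mRNAs have no introns and, as a rule, end in a short stem-loop in place of a poly(A) tail. That stem-loop is bound by the protein encoded by Slbp. The genes lie in clusters of many near-identical copies, so reads from different copies can be hard to tell apart. Libraries made by removing ribosomal RNA can hold RNA that has no poly(A) tail.

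Of the 9 members, 8 lie within 50705 bases of chromosome 13 between positions 21786826 and 21837530 (GRCm38). They form divergent pairs of an H2A gene and an H2B gene, with an H4 gene next to each of 2 pairs. Hist1h2an (21786826 to 21787218, minus strand) lies back to back with Hist1h2bp (21787461 to 21789213, plus strand). Hist1h2bq (21806612 to 21810197, minus strand), Hist1h2ao (21810465 to 21810944, plus strand) and Hist1h4m (21811746 to 21812147, plus strand) follow. The same order returns mirrored, as Hist1h4n (21831767 to 21832196, minus strand), Hist1h2ap (21833026 to 21833507, minus strand) and Hist1h2br (21833743 to 21837530, plus strand). Hist1h2al (51202727 to 51203065, minus strand) lies 29.4 Mb away on the same chromosome and is annotated as a processed pseudogene, which is at odds with its label as a replication-dependent histone gene.

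The DNA between the starts of 2 H2A and H2B pairs is printed first, because it shows how alike the copies are. Sequences are from RefSeq (GRCm38.p6), and cover only bases that lie before the start of both genes in both annotations. Capitals mark CCAAT and its reverse complement ATTGG, the TATA-type words TATAAA as well as the close form TATAAG in either orientation, and a 15-base word, GCCTCATTTGAATAA.
Hist1h2an and Hist1h2bp, chr13:21787249-21787460, plus strand, read towards Hist1h2bp: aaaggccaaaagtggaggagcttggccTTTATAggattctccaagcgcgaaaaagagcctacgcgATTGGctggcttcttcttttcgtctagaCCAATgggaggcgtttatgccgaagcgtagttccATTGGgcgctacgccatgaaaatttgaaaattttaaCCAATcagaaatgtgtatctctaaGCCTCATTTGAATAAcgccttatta
Hist1h2ap and Hist1h2br, chr13:21833508-21833742, plus strand, read towards Hist1h2br: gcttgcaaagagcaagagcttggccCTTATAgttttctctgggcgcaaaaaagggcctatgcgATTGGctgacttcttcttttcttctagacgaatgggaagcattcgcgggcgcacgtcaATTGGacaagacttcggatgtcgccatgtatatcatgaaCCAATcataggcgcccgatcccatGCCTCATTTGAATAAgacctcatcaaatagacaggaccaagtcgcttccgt

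The second stretch occurs unchanged beside Hist1h2bq. Over the windows of 300 bases given by RefSeq, which cover 250 bases before and 50 after a start, Hist1h2bq and Hist1h2br were identical at 300 of 300 bases. Hist1h2ao and Hist1h2ap were identical over the 200 bases that could be aligned. RefSeq entries were matched for 8 of the 9 members, all but Hist1h2al.

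CCAAT, the word bound by the factor NF-Y, occurred on either strand in the windows of all 6 matched H2A and H2B members and in neither H4 member, against 37.4% of all 32851 windows. It also occurred in all 15 windows of other H2A genes, all 14 of other H2B genes, all 6 of H1 genes and all 10 of H3 genes, and in 3 of 10 of other H4 genes. The octamer ATTTGCAT, bound by POU factors and known from H2B promoters, occurred in 0 of the 8 member windows. It occurred in 7 of 14 windows of other H2B genes, in 7 of 15 of other H2A genes and in 1.74% of all windows. The 15-base word was the longest one common to the 6 H2A and H2B member windows, and it was found after the sequences had been seen. It lies in those 6 windows and in no other of the 32851. Since divergent members share their windows and the copies are duplicates, these 6 are not independent. The word contains ATTTGAAT, which is the octamer with the substitution C6A, counted from 1 at its 5′ end. ATTTGAAT occurred in 3 of 15 windows of other H2A genes, in 5 of 14 of other H2B genes and in 1.24% of all windows. Of the TATA-type words, TATAAA lies in 4 of 8 member windows, against 13.6% of all windows, and TATAAG lies in 6 of 8, against 7.43%. Among other family genes TATAAA lies in 10 of 15 H2A, 7 of 14 H2B and 6 of 10 H4 windows. It also lies in 4 of 6 H1 and 4 of 10 H3 windows. In the same genes TATAAG lies in 5 of 15 H2A, 4 of 14 H2B and 4 of 10 H4 windows, and in 2 of 6 H1 and 2 of 10 H3 windows. Motif matches are descriptions of sequence only, counted on either strand.

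The stretch before the start of Hist1h4m follows, since the H4 pair has other words in the same place. Capitals mark the same TATA-type words together with GGTCCG, a word within the H4 promoter element that the factor HINFP binds.
Hist1h4m, chr13:21811618-21811745, plus strand: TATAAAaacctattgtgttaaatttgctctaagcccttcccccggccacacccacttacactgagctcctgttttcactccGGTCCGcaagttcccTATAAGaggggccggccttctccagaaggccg

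This stretch is the same in Hist1h4n, and the windows of both H4 members were identical at 298 of 299 aligned bases. GGTCCG, on either strand, lies in both H4 member windows and in 9 of 10 windows of other H4 genes, against 8.25% of all windows.

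The stem-loop that ends histone mRNAs was looked for in the GENCODE M21 transcripts with the 16-base pattern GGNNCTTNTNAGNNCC, in which N is any base. Capitals mark the stem, lower case the loop.
Hist1h2ap, Hist1h2ao and Hist1h2bp: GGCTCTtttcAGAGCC
Hist1h4n and Hist1h4m: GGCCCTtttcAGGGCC

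It was found in the annotated transcripts of 5 of the 9 members and of 46 of the 70 genes of the family. The form of the H2A and H2B members was the most frequent, in 26 genes, and the form of the H4 members occurred in 7. The annotated transcripts of Hist1h2an, Hist1h2bq, Hist1h2br and Hist1h2al do not contain it. For Hist1h2an and for the shortest transcripts of Hist1h2bq and Hist1h2br the annotated model stops at the end of the coding sequence, so the bases that follow were not searched.

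Coding sequences were then compared within each class. Hist1h2bq and Hist1h2br had 0 differences over 378 bases, Hist1h2ao and Hist1h2ap 0 over 390 bases, and Hist1h4m and Hist1h4n 0 over 309 bases. The nearest genes outside these pairs differed from Hist1h2bq at 2 of 378 bases (Hist1h2bc and Hist1h2bj), from Hist1h2ap at 3 of 390 (Hist1h2ad and Hist1h2ag) and from Hist1h4n at 10 of 309 (Hist1h4h and Hist1h4i). Hist1h2an differed at 4 of 390 bases from Hist1h2ad and Hist1h2ag. Hist1h2bp was the most separate H2B member, with 6 differences over 378 bases from Hist1h2bq and Hist1h2br.

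The pseudogene Hist1h2al was set beside Hist2h2aa2, the H2A gene it most resembles, because both differences over 339 bases are short enough to show. Positions are counted from 1 at the first base of the annotated Hist1h2al transcript, and capitals mark the base that differs. The substitutions, with the base of Hist2h2aa2 first and that of Hist1h2al last, were T120C and G216T. The GENCODE M21 sequences of the 41 bases around each are as follows.
Hist1h2al, bases 100 to 140: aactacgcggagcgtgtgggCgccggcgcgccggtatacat
Hist2h2aa2, the same stretch: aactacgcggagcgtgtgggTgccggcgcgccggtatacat
Hist1h2al, bases 196 to 236: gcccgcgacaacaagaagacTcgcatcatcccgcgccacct
Hist2h2aa2, the same stretch: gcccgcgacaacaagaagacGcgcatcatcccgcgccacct

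How much of each transcript could be placed was described by cutting the shortest annotated transcript of each member into overlapping windows of 31, 75 and 150 bases and looking for each window in every other annotated gene. The reads of these libraries extended 150 bases from each end of a fragment. All 150-base windows of Hist1h2bq and Hist1h2br were found in another gene, and so were 91.8% and 83.0% of those of their longest annotated transcripts. The share was 91.5% for Hist1h2ao, 91.0% for Hist1h2ap, 85.8% for Hist1h4m, 77.2% for Hist1h4n, 72.5% for Hist1h2an and 39.4% for Hist1h2bp. Hist1h2al had 81.9% of its 31-base windows in other genes but 0% of its 150-base windows. The split of reads between members of an identical pair therefore rests on bases outside the coding sequence and on the authors' counting. Values for single members of the pairs are uncertain for that reason, and the sum of each pair is given beside them.

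**Figure D1:**
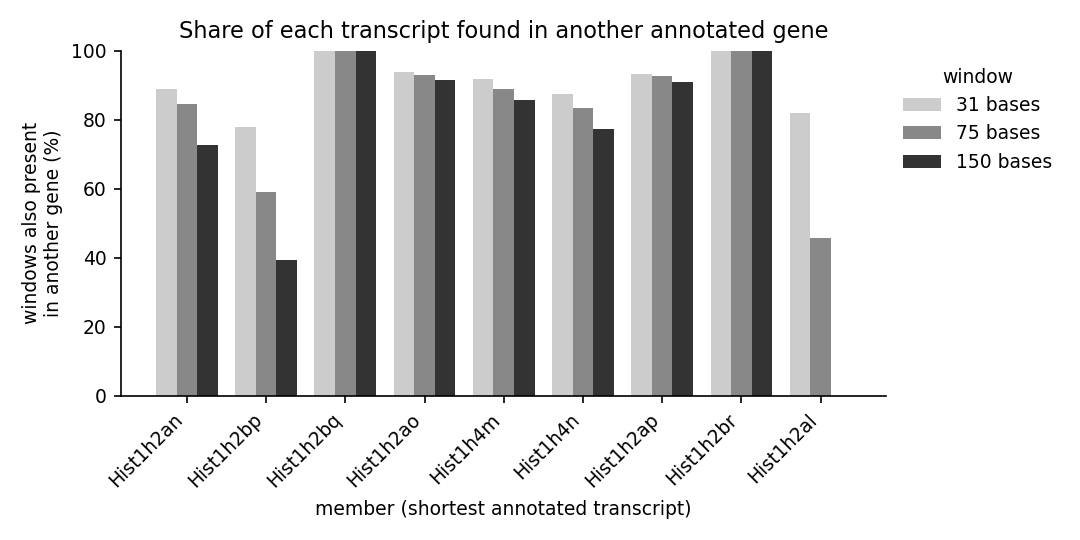
Bars give the percentage of windows (y axis) of 31, 75 and 150 bases in the shortest annotated transcript of each member (x axis, in order along chromosome 13) that occur in another annotated gene. Hist1h2bq and Hist1h2br reach 100% at all 3 lengths, and Hist1h2al is at 0% for 150 bases.

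Columns of the table carrying the same number were compared before any level was taken. The estimated counts summed to 19537211 and 22713416 in Fgf9_null columns 2 and 3 and to 19269851 and 22425865 in Fgf9_het columns 2 and 3. For the 9 members, the Fgf9_null and Fgf9_het columns with the same number differed by at most 6.22 counts and at most 0.248%. A chi-square statistic per degree of freedom over the members was 0.000421 for number 2 and 0.000449 for number 3, far below the value near 1 that separate draws of reads would give. Between columns of different number it was 318 or more. Over all genes the statistic was 4.55 for number 2 and 4.72 for number 3, and 99.98% and 99.93% of it came from the 4 genes that contributed most, picked with their values in view. In both cases the 7SL RNA genes Rn7s1 and Rn7s6 were among them. Without those 4 genes it was 0.000887 for number 2 and 0.00328 for number 3, against 5.34 or more between columns of different number. Apart from a few such genes, the difference within a number was smaller than the sampling noise, and same-numbered columns were counted as 1 sample, called library 2 and library 3 here. Each level below averages both columns of a library, in CPM, which scales each count to the total of its column, and each mean ± SD is over n = 2 libraries. Fgf9 itself, the gene targeted by the allele, had 133 counts in both columns of library 2 and 131 in both columns of library 3.

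The tissue's own markers were present in both libraries. The stomach mesenchyme gene Barx1 averaged 133 CPM and the gastric epithelial genes Cldn18 and Cym 377 and 4692 CPM. All 5 germ line markers were below 1 CPM. In bulk tissue, fewer cells of a type and less RNA per cell cannot be told apart.

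Under the labels' comparison of Fgf9_null with Fgf9_het, no member differed. edgeR's quasi-likelihood test over 19987 genes, with Benjamini-Hochberg adjustment, tested 9 of 9 members and called 0, with 0% of all genes called. At an unadjusted p under 0.05 there were 0 members and 4 genes in all. DESeq2 called 0 members. The log2 fold changes of the members were at most 0.00129 in size, and their adjusted p was 1 throughout (edgeR). Hist1h2ap, the most abundant member, had 5298 and 9301 counts in Fgf9_null columns 2 and 3, against 5299 and 9307 in Fgf9_het columns 2 and 3. Hist1h2al had 1035 and 12.2 counts in Fgf9_null columns 2 and 3, against 1035 and 12.1 in Fgf9_het columns 2 and 3. The difference between column numbers was far larger than that between genotype labels for these genes. Because, for the members, each label holds the same values of 2 libraries, the comparison says nothing about the size of a genotype difference.

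By level, the members spanned a wide range, and 7 of the 9 reached at least 1 CPM in both libraries. Hist1h2ap led with 273 CPM in library 2, against 412 CPM in library 3 (343 ± 98.4), a rank of 4 by mean among the 70 family genes. Hist1h2bq followed with 239 CPM in library 2, against 262 CPM in library 3 (251 ± 16.2), with a rank of 10. H2A and H2B form a dimer in the histone core. Hist1h2ap and Hist1h2bq were each listed with the larger share of the counts of an identical pair, a split that the shared sequence leaves uncertain.

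The H4 genes came next. Hist1h4n had 162 CPM in library 2, against 152 CPM in library 3 (157 ± 7.26), and Hist1h4m had 82.1 CPM in library 2, against 161 CPM in library 3 (122 ± 55.8). Their levels overlapped, since Hist1h4m was lower in library 2 and higher in library 3.

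The remaining members lay lower. Hist1h2bp had 52.4 CPM in library 2, against 52.0 CPM in library 3 (52.2 ± 0.300), the smallest relative spread among the members. Hist1h2an had 31.3 CPM in library 2, against 57.2 CPM in library 3 (44.3 ± 18.3). Hist1h2bp and Hist1h2an share the DNA between their starts. Hist1h2bp was the higher of them in library 2 and Hist1h2an in library 3, so their order by mean is not settled.

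Hist1h2al had 53.3 CPM in library 2, against 0.538 CPM in library 3 (26.9 ± 37.3), an SD larger than its mean. Hist1h2br had 6.70 CPM in library 2, against 37.8 CPM in library 3 (22.3 ± 22.0). Hist1h2ao, identical in coding sequence to the leading gene Hist1h2ap, had 0.934 CPM in library 2, against 1.01 CPM in library 3 (0.969 ± 0.0506). It had the lowest mean of the members, at 18.1 and 22.7 counts in libraries 2 and 3, although Hist1h2al was lower in library 3.

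**Figure D2:**
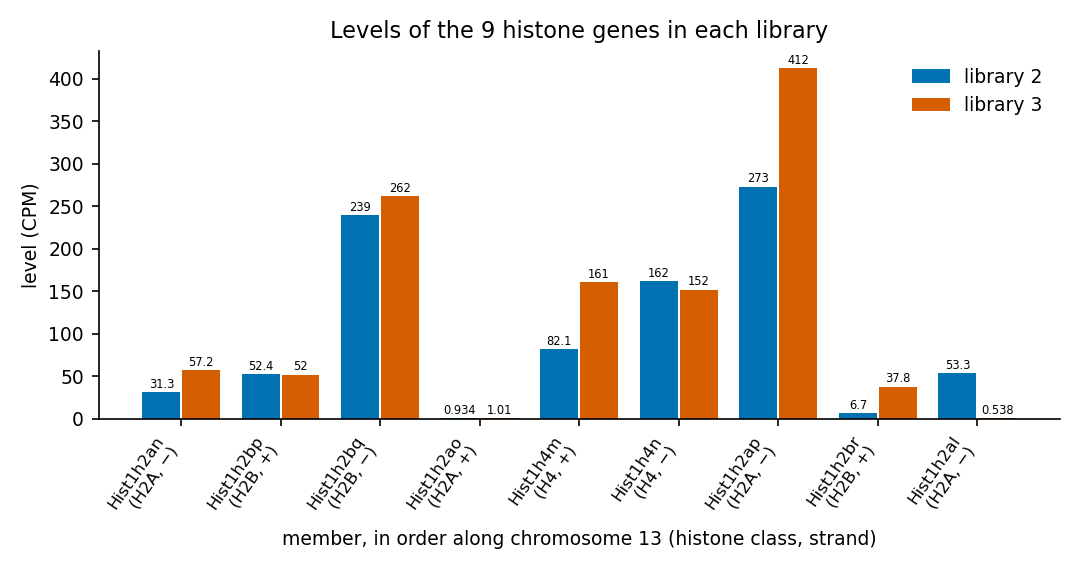
Bars give the level in CPM (y axis) of each member (x axis, in order along chromosome 13, with class and strand) in library 2 and library 3, each averaged over both of its columns. Hist1h2ap and Hist1h2bq are highest, Hist1h2ao is near 1 CPM, and Hist1h2al is at 53.3 CPM in library 2, against 0.538 CPM in library 3.

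Within the identical pairs the split was uneven for H2A and H2B, while for H4 it was uneven in library 2 and near even in library 3. Hist1h2ap held 99.7% of the summed level of Hist1h2ap and Hist1h2ao in library 2 and 99.8% in library 3. Hist1h2bq held 97.3% of the sum of Hist1h2bq and Hist1h2br in library 2 and 87.4% in library 3. Hist1h4n held 66.4% of the sum of Hist1h4n and Hist1h4m in library 2 and 48.6% in library 3. The H2A copy and the H2B copy listed with the larger share belong to different triplets, Hist1h2ap beside Hist1h2br and Hist1h2bq beside Hist1h2ao. Which copy the reads came from cannot be told, since the copies share most of their sequence. The annotated transcripts of Hist1h2ap and Hist1h4m end 3 bases after the stem-loop, and those of Hist1h2ao and Hist1h4n 31 bases after it. The part of these ends in the split was not tested.

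Estimated counts that had been divided between genes are rarely whole. All 36 of the 36 member values, over the 4 columns, were more than 0.001 away from a whole number. Among all genes with a count, 45.1% to 46.0% of the values in a column were. Of the other 61 family genes, 51 had 4 values that were not whole and 9 had whole values only, of which 4 are listed at 0 in every column.

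Annotated genes overlap exons of 4 members on the other strand, and no source used here says whether the authors counted by strand. The annotated miRNA gene Gm44346, within Hist1h2an, had 10.2 CPM in library 2, against 20.4 CPM in library 3. Gm44341, within Hist1h2al, had 1.72 CPM in library 2, against 2.65 CPM in library 3. Gm19658 and Gm44466, which overlap Hist1h2ao and Hist1h2ap, were not found by GENCODE M21 identifier among the genes of the table, so they have no level here.

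Per length, the order of the members depends on which transcript is taken. With the longest annotated transcript of each gene and the same total in each library, Hist1h2ap stood at 1555 ± 440.3 and Hist1h2bq at 272 ± 16.5 (level per length, SD, n = 2 libraries). With the shortest transcript of each gene, on a scale of its own, Hist1h2ap stood at 354 ± 100.6 and Hist1h2bq at 328 ± 20.3. The second scale was added after the values were seen, because the annotated models of Hist1h2bq run from 381 to 2015 bases. Hist1h2ap has a single annotated transcript of 482 bases, which includes the stem-loop, whereas the shortest model of Hist1h2bq holds only its coding sequence. The closer values on the second scale thus set unlike models beside each other.

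Summed over the members, the level was 901 CPM in library 2, against 1136 CPM in library 3 (1018 ± 166). The 4 H2A members held 359 CPM in library 2, against 471 CPM in library 3, the 3 H2B members 298 and 352 CPM, and the 2 H4 members 244 and 313 CPM, in the same order of libraries. The members were 10.2% of the summed level of the 70 family genes in library 2 and 10.3% in library 3. They made up 17.0% and 18.2% of the H2A level in libraries 2 and 3, 17.1% and 15.3% of the H2B level, and 12.9% and 12.7% of the H4 level. The other 61 genes summed to 7973 CPM in library 2, against 9854 CPM in library 3. The whole family thus held 0.887% of the counts of library 2 and 1.10% of those of library 3.

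**Figure D3:**
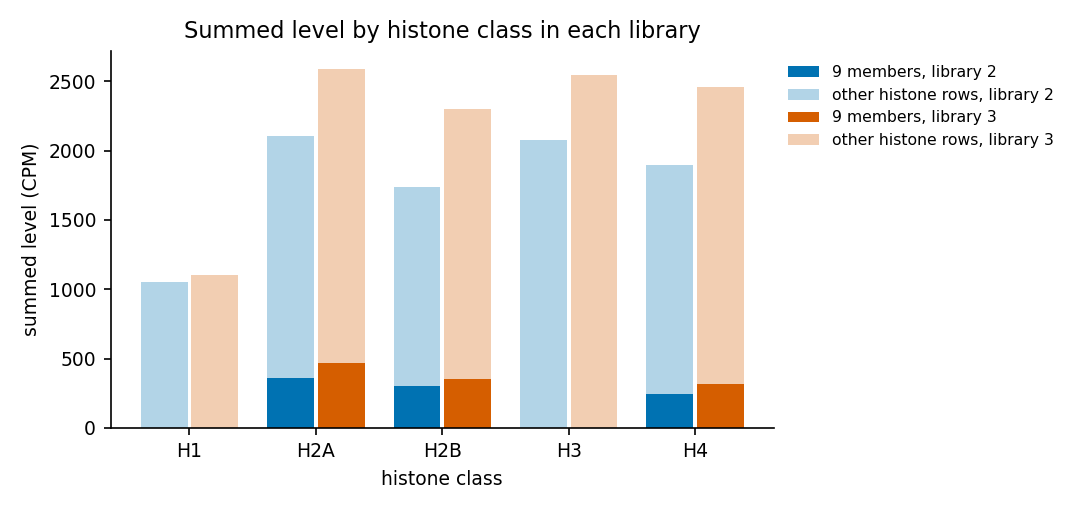
Stacked bars give the summed level in CPM (y axis) of the histone genes of each class (x axis) in library 2 and library 3, with the 9 members in solid colour at the base and the other 61 family genes in pale colour. Members occur only in H2A, H2B and H4, where they sum to 359, 298 and 244 CPM in library 2 and to 471, 352 and 313 CPM in library 3.

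The libraries were then set side by side, as library 2 over library 3. With 1 sample on each side there is no test, and the counts below describe these libraries. Among the 8 members with a mean of at least 1 CPM, 1 was more than 1.5-fold higher in library 2 and 4 were more than 1.5-fold lower. Among the 17153 genes of the table that passed the same filter, 3.38% were higher and 1.82% were lower by that measure. The median ratio was 0.777 for the members, 0.799 for 56 other family genes and 1.01 for all genes. Of those 56 genes, 53 were lower in library 2, 5 of them by more than 1.5-fold, and none was more than 1.5-fold higher.

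Hist1h2al was the member higher in library 2, with a ratio of 99.1 (95% counting interval 56.7 to 192). This pseudogene passed the filter through library 2 alone, since it was at 0.538 CPM in library 3. The 4 lower ones were Hist1h2br at 0.177 (0.146 to 0.213), Hist1h4m at 0.510 (0.481 to 0.541), Hist1h2an at 0.548 (0.497 to 0.604) and Hist1h2ap at 0.662 (0.640 to 0.685). Such intervals cover counting error only, and they leave out the error of dividing reads between copies. Hist1h2bq at 0.912, Hist1h2bp at 1.01 and Hist1h4n at 1.07 lay closer to 1. Hist1h2ap was the member nearest to the limit, at 1.51-fold, and among those that did not pass it Hist1h2bq was next, at 1.10-fold. Hist1h2ao, below the filter, had a ratio of 0.929 (0.472 to 1.8).

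Identical copies were also summed, which must give a ratio between those of the copies, weighted by their levels in library 3. The sum of Hist1h2bq and Hist1h2br was 246 CPM in library 2, against 299.9 CPM in library 3, a ratio of 0.820. The sum of Hist1h4m and Hist1h4n was 244 CPM in library 2, against 313 CPM in library 3, a ratio of 0.781. The sum of Hist1h2ao and Hist1h2ap was 274 CPM in library 2, against 413 CPM in library 3, a ratio of 0.663. All 3 sums were lower in library 2, although Hist1h4n alone was higher there.

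Hist1h2al was also summed with Hist2h2aa2, the gene that differs from it at 2 bases, a choice made after the values were seen. Hist2h2aa2, the most abundant gene of the family, had 468 CPM in library 2, against 581 CPM in library 3, a ratio of 0.806. The sum was 522 CPM in library 2, against 581 CPM in library 3, a ratio of 0.897. Hist2h2aa2 makes up most of the sum in both libraries. The sum therefore mainly follows that gene, and says nothing about why Hist1h2al differed. Whether reads were divided differently between these genes was not tested. Hist2h2aa1, which is as close to Hist1h2al as Hist2h2aa2 is, is listed at 0 in all columns.

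The ratios of the 56 other family genes ran from 0.388 to 1.34, with quartiles at 0.720 and 0.897. The ratios of 2 members, Hist1h2al and Hist1h2br, lay outside that range. The lowest of the 56 was the testis H1 gene Hist1h1t, at 15 and 45 counts in libraries 2 and 3. The other testis genes of the clusters, Hist1h2aa and Hist1h2ba, are listed at 0.

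**Figure D4:**
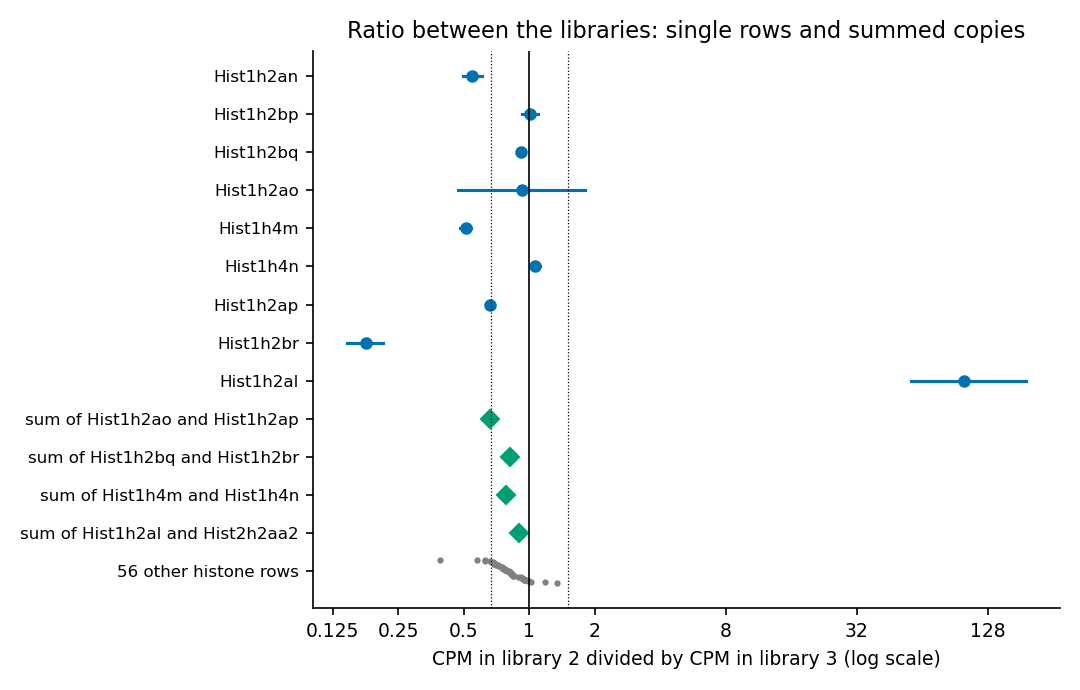
The x axis (log scale) gives CPM in library 2 divided by CPM in library 3, for the 9 members (circles, with 95% counting intervals), for 4 sums of near-identical genes (diamonds) and for 56 other histone genes (grey points). Dotted lines mark 1.5-fold in either direction. Hist1h2al at 99.1 and Hist1h2br at 0.177 stand outside the grey points, and the 4 sums lie between 0.663 and 0.897.

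Other genes of histone production and of the cell cycle were read from fixed lists, and edgeR called 0 genes of any list between the labels. Among 20 factors of histone mRNA transcription and 3′ end processing, 0 passed 1.5-fold between the libraries in either direction, with a median ratio of 0.968. Slbp, whose product binds the stem-loop shown above, had 40.5 CPM in library 2, against 43.8 CPM in library 3. Npat, a coactivator of histone gene transcription, had 42.8 CPM in library 2, against 39.4 CPM in library 3. The most abundant of the list was Sympk, a scaffold of the 3′ end processing machinery, at 181 CPM in library 2, against 195 CPM in library 3. Slbp and Npat were chosen after their values were seen.

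Of the 16 histone chaperones, 0 passed 1.5-fold, and their median ratio was 0.958. Atrx had the highest mean, with 281 CPM in library 2, against 271 CPM in library 3. Npm1 was close to it by mean, with 259 CPM in library 2, against 290.4 CPM in library 3. Of 16 replication-independent histone genes, which are expressed outside S phase as well, 11 reached a mean of 1 CPM, 0 passed 1.5-fold and the median ratio was 0.933. H3f3b and H3f3a, which encode the variant H3.3, had 428 and 240.1 CPM in library 2 and 471 and 240.6 CPM in library 3.

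The 24 S phase genes had a median ratio of 0.917 and 19 were lower in library 2, with 0 past 1.5-fold. The 16 mitosis genes had a median ratio of 0.960 and 13 were lower in library 2, again with 0 past 1.5-fold. The members' median ratio was 0.777, and 0.912 with Hist1h2ao, at a mean just under 1 CPM, admitted. Both values lay below the S phase median of 0.917, and how far below depended on that filter. Of the marker lists, 4 of 4 stomach mesenchyme genes (summed 248 CPM in library 2, against 274 CPM in library 3) and 3 of 3 smooth muscle genes (4815 and 5056 CPM) were lower in library 2. Of 4 erythroid markers (summed 23.3 and 30.7 CPM), 2 of the 2 that reached 1 CPM in mean were lower in library 2. Of 5 gastric epithelial markers (summed 5560 and 5193 CPM), 3 were higher there. The part of cell cycle state or cell makeup in the members' ratios was not tested.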

How the data were processed

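Per the labels' protocols, total RNA was depleted of ribosomal RNA with RNase H, primed with random hexamers and read as paired ends. Tools listed in the submitters' processing notes, without their roles, are edgeR, Salmon 1.8.0, FastQC 0.10 and Trimmomatic 0.33, with mm10 and GRCm38 as builds. The authors deposited unscaled estimated counts (expected counts) for Ensembl genes. The sources used here give neither annotation release nor strand setting. The table has 2 value columns with no name, which were not used. At these depths 1 count is worth 0.0440 to 0.0519 CPM.

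Members, lists and tests were chosen with earlier results of these data known. Samples were grouped by the genotype label. Rounded estimated counts entered edgeR 4.0.16 under R 4.3.3 (TMM, filterByExpr, quasi-likelihood, Benjamini-Hochberg, threshold 0.05), and with DESeq2 1.42.0 as an alternative. The edgeR test and the library ratio were tested on simulated data. For edgeR every simulated column was a separate library, unlike here, so that simulation does not bear on the comparison of the labels. Same-numbered columns deviated together from their group means (correlation 0.999), so the numbers pair columns of 1 library. The p-values reflect spread among columns only, not among embryos. CPM was averaged per library. Ratios used genes with a mean of at least 1 CPM and a limit of 1.5-fold. Genes were matched to GENCODE M21 by identifier (50870 of 51098). Coding sequences were aligned with Biopython 1.88, and members were summed with each other from 99% identity over 300 bases or more, a limit set after sequence sharing was seen; genes outside the members were not, except Hist2h2aa2 with Hist1h2al. All 9 members are named. The rule took the 3 most abundant genes of each list, of which only some are printed.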

Additional observations from a re-analysis of the deposited data

How the results depend on the processing

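Of 75 alternative values, 56 kept their direction, their side of the threshold and about their size. Of the rest, 0 reversed, and 19 changed in size or crossed the threshold. Many of the 56 could not have come out otherwise. With n = 2, a sum from either library alone always lies within the SD of the mean, which was the limit used. Settings with the columns of either label alone reuse the same 2 libraries. No member was called between the labels by edgeR with the replicate block, with other scalings or filters or with any column left out, or by DESeq2. Over all genes the count was 0, against 3 with DESeq2, 6 with the replicate block, and 1 to 2 with a column left out. The replicate block changed no call of a member. The lack of member calls under these settings carries no weight, because for the members each label holds the same values of 2 libraries. When CPM was taken over protein-coding genes only, the members' summed level was 1314 CPM, with 535 CPM for H2A, 419 CPM for H2B and 359 CPM for H4. Per length, the sums were 3919 for all members, 1980 for H2A, 478 for H2B and 1461 for H4. Over protein-coding genes, 3 members were more than 1.5-fold lower in library 2. The count was 2 when identical copies were summed and 1 at a limit of 2-fold, against 4 before. The members' median log2 ratio of library 2 over library 3 was -0.36. It was -0.12 over protein-coding genes and -0.13 with no filter, both of which admit Hist1h2ao. It was -0.59 without Hist1h2al, an alternative chosen after seeing the data. A design with 2 libraries, each under both labels, limits every level to n = 2.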
